A study of Mus musculus with 24 samples.

Results

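Collagens are the proteins that give the extracellular matrix its fibrils, sheets and anchoring filaments, and 44 genes whose mouse symbol names a collagen chain were followed here by brain region and genotype. The members were every symbol made of Col, a number, the letter a and a number, with a mean of at least 0.5 CPM (the counts of a gene scaled to a common library total) over the 24 libraries. All 44 symbols of this form met that minimum, out of 37621 features in each table. The members just inside the minimum were Col10a1 with a mean of 0.53 CPM, Col6a6 with 0.59 CPM and Col6a5 with 0.86 CPM, and none lay just outside it. They were described in 4 classes: 5 fibrillar collagens of the meninges, 8 collagens of vascular basement membranes, 4 collagens known from neurons and 27 others.

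The libraries came from C57BL/6 mice that were wild type or carried a knockout of Cdr1as, a circular RNA that is abundant in neurons and binds a microRNA. Cerebellum, cortex, hippocampus and olfactory bulb were dissected, and each of the 8 groups of region and genotype held 3 libraries of poly(A) RNA. No further allele, agent or treatment is named for any group, and age and sex are not given in the sources used here. The labels do not say whether equally numbered libraries came from the same animal or whether replicates were separate animals, so p-values measure only the spread between these samples, which may be technical.

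Collagen chains assemble by their repeated glycine-containing stretches into a rope-like helix, and the type of collagen is set by which chains combine. Fibrillar collagens such as types I, III and V are cleaved outside the cell and align into fibrils, which in the brain are largely a feature of the meninges. Type IV collagen instead forms the sheet-like network of basement membranes, which in the brain surround blood vessels, and types XV and XVIII are proteoglycan collagens attached to such membranes. A small set, among them the transmembrane types XXIII and XXV and the types XIX and XXIV, is known from neurons. In the adult brain parenchyma fibrils are sparse, so collagen transcripts in dissected tissue come with the vessels, meninges and choroid plexus that the dissection carries as well as with neural cells.

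Counts assigned to genes ranged from 21068566 to 40472007 per library, and all olfactory bulb knockout libraries (33770965 or more) were deeper than the olfactory bulb wild-type libraries (27168999 or fewer). The feature listed as Cdr1asG, by its name the targeted locus, was at 2.23 to 29.0 CPM in wild-type libraries and 0.115 to 1.95 CPM in knockout libraries, and the genotypes did not overlap in any region. Markers of choroid plexus, the epithelium that secretes cerebrospinal fluid, set 5 libraries apart. The 11 markers summed to over 1000 CPM in cerebellum wild type 1 and 2, cerebellum knockout 2 and hippocampus wild type 1 and 3, against 26.8 to 679 CPM in the other 19. The 7 markers of each dissected region summed higher in every library of that region than in any other library, for example to 5594 CPM or more against at most 171 CPM for cerebellum and to 741 CPM or more against at most 358 CPM for cortex. The libraries numbered 2 also stood apart from those numbered 1 and 3 in many genes, in both genotypes. In bulk tissue, fewer cells of a type and less RNA per cell cannot be told apart, and this holds for every difference given below.

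Per base of exon, the beaded-filament chain Col6a1 was the most abundant collagen transcript, with a mean RPKM, the CPM divided by the exon length in kilobases, of 19.2. The vascular basement membrane chains Col4a2 (12.5 RPKM) and Col4a1 (11.5 RPKM) followed, then Col9a3 (8.34 RPKM), a chain of the fibril-associated type IX. At the other end, Col6a6 stood at 0.065 RPKM. All further levels are CPM scaled by edgeR's TMM method, which compare libraries and not genes.

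The summed CPM of the collagens was largest in the olfactory bulb, in good part through Col6a1. The 44 members together made up 1011 ± 57.8 CPM (SD, n = 3) in wild-type olfactory bulb, 738 ± 80.5 CPM in cerebellum, 727 ± 81.8 CPM in hippocampus and 586 ± 167 CPM in cortex. Col6a1 alone averaged 194 CPM in wild-type olfactory bulb, 16 CPM in cerebellum, 46.4 CPM in hippocampus and 60.6 CPM in cortex. The 4 neuronal collagens were lowest in the cerebellum, at 36.2 ± 6.75 CPM, against 111 ± 8.04 CPM in cortex, 125 ± 30.3 CPM in hippocampus and 130 ± 16.4 CPM in olfactory bulb. The 8 vascular basement membrane collagens together were lowest in the cortex, at 162 ± 59.7 CPM, and reached 267 ± 30.9 CPM in cerebellum. That order rested on Col18a1, which alone averaged 144 CPM in wild-type cerebellum and 7.47 CPM in cortex. Col4a1 and Col4a2 instead had their lowest wild-type means in cerebellum, at 54.2 and 40.3 CPM, against 67.6 and 71.1 CPM in cortex. Meningeal fibrillar collagens summed to 145 ± 19.3 CPM in wild-type olfactory bulb and 84.1 ± 22.9 CPM in cortex. Those ranges, 133 to 168 CPM and 58.2 to 102 CPM, did not overlap.

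**Figure D1:**
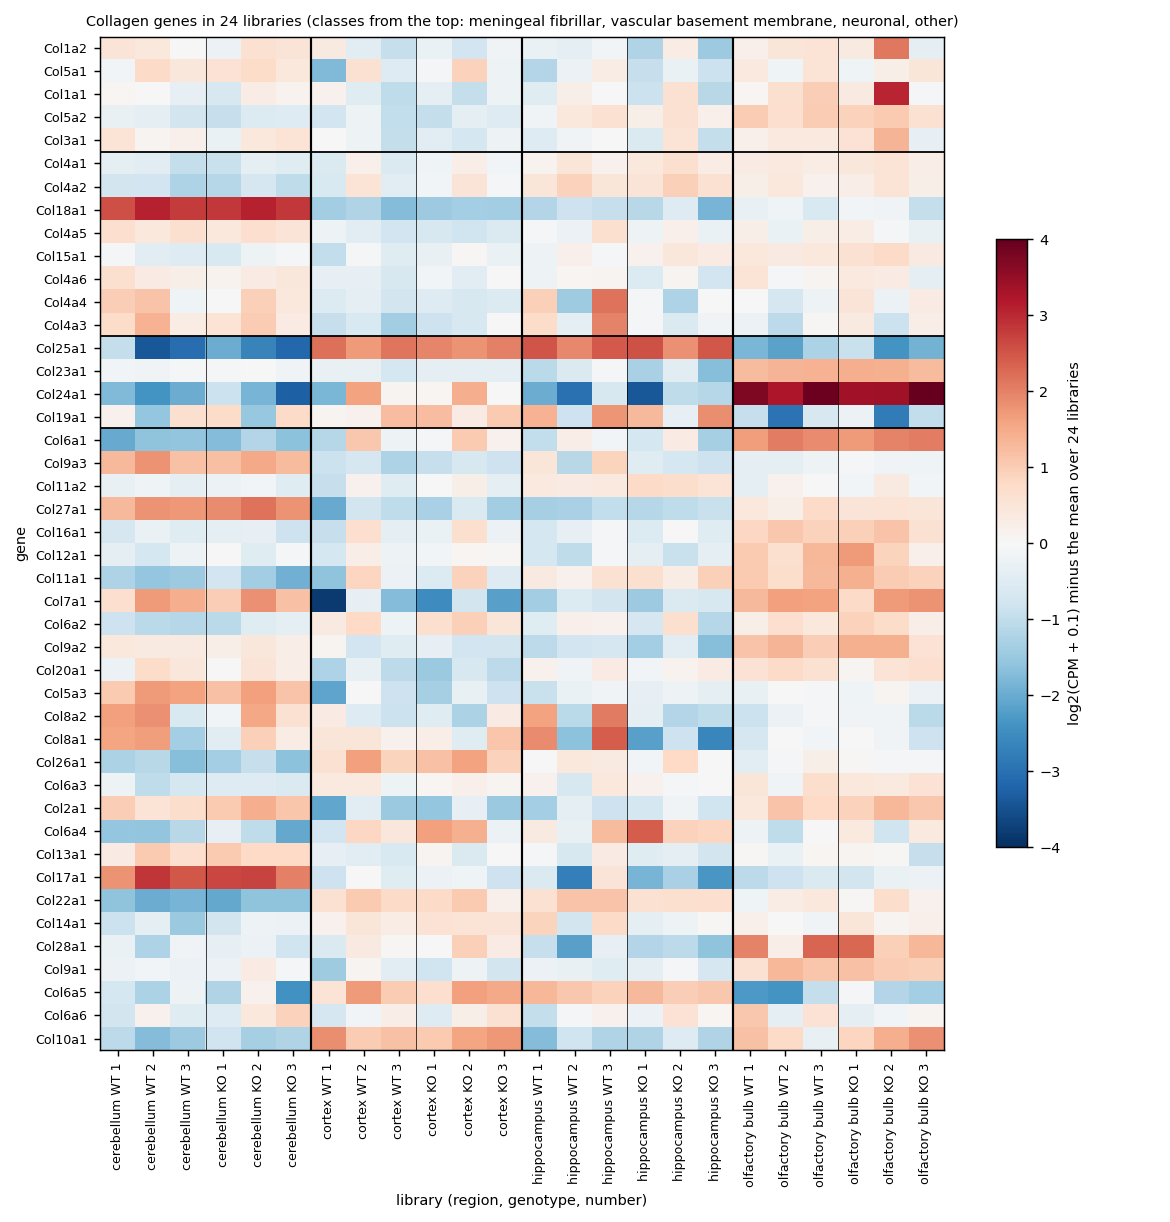
Each row is one of the 44 collagen genes, ordered by class, and each column one of the 24 libraries; colour is log2(CPM + 0.1) minus the mean of that gene over all libraries. Col18a1 is high only in the 6 cerebellum columns and Col24a1 in the 6 olfactory bulb columns, while the wild-type and knockout columns of a region look alike for most genes.

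The heatmap of all members by library shows region blocks rather than genotype blocks. To measure them, each region was set against the mean of the other 3 on the log2 scale, in the 12 wild-type libraries and again in the 12 knockout libraries, which the wild-type fit did not use. A gene was called at an adjusted p under 0.05 (edgeR quasi-likelihood test, Benjamini-Hochberg over all genes tested). In wild-type olfactory bulb, 19 of 44 collagens were called higher and 3 lower, beside 22% and 21.6% of all genes (43.7% in either direction). In cortex 6 were higher and 14 lower, beside 21.8% and 17.6% of all genes (39.3%). In cerebellum 10 were higher and 14 lower, beside 27.5% and 26.9% (54.4%), and in hippocampus 7 and 7, beside 17.7% and 15.3% (33%). In the wild type, the counts of cerebellum and hippocampus were thus near the background. Higher calls in olfactory bulb and lower calls in cortex took a larger share of the collagens than of all genes.

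Genes called in both genotypes kept their regional direction. Hippocampus held more lower calls in the knockout libraries, 15 against 7 in the wild type, beside 19.4% and 15.3% of all genes. No collagen was called for a difference of the knockout effect between regions. Wild-type hippocampus 1 and 3 were rich in choroid plexus markers and no knockout hippocampus library was. The part of this in the counts was not tested. In the knockout libraries, 13 collagens were higher and 18 lower in cerebellum, beside 30.2% and 31% of all genes (61.2% in either direction), and 6 and 12 in cortex, beside 24.6% and 21.7% (46.3%). In hippocampus 8 were higher and 15 lower, beside 22.1% and 19.4% (41.5%), and in olfactory bulb 20 and 1, beside 25.5% and 22.8% (48.3%). Genes called in both genotypes numbered 23, 15, 13 and 19 in that order, each with the same sign, and none was called with opposite signs. In the knockout libraries, lower calls in hippocampus and cerebellum took a larger share of the collagens than of all genes. Lower calls in cortex lay nearer the background there than in the wild type. Only the larger share of higher calls in olfactory bulb was seen in both genotypes. The region with the highest mean was the olfactory bulb for 21 members, hippocampus for 11, cerebellum for 9 and cortex for 3 in the wild type, and it was the same region in the knockout for 34 of 44. Over the members the median log2 difference in the wild type was 0.44 in olfactory bulb, -0.26 in cerebellum, -0.44 in cortex and -0.01 in hippocampus. In the knockout the members had medians of 0.51, -0.07, -0.18 and -0.45 in that order. The median of all genes lay between -0.02 and 0.02 in both genotypes. Scaling by library totals moved the median of all genes in the olfactory bulb contrast up by 0.15 in the wild type and by 0.11 in the knockout.

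**Figure D2:**
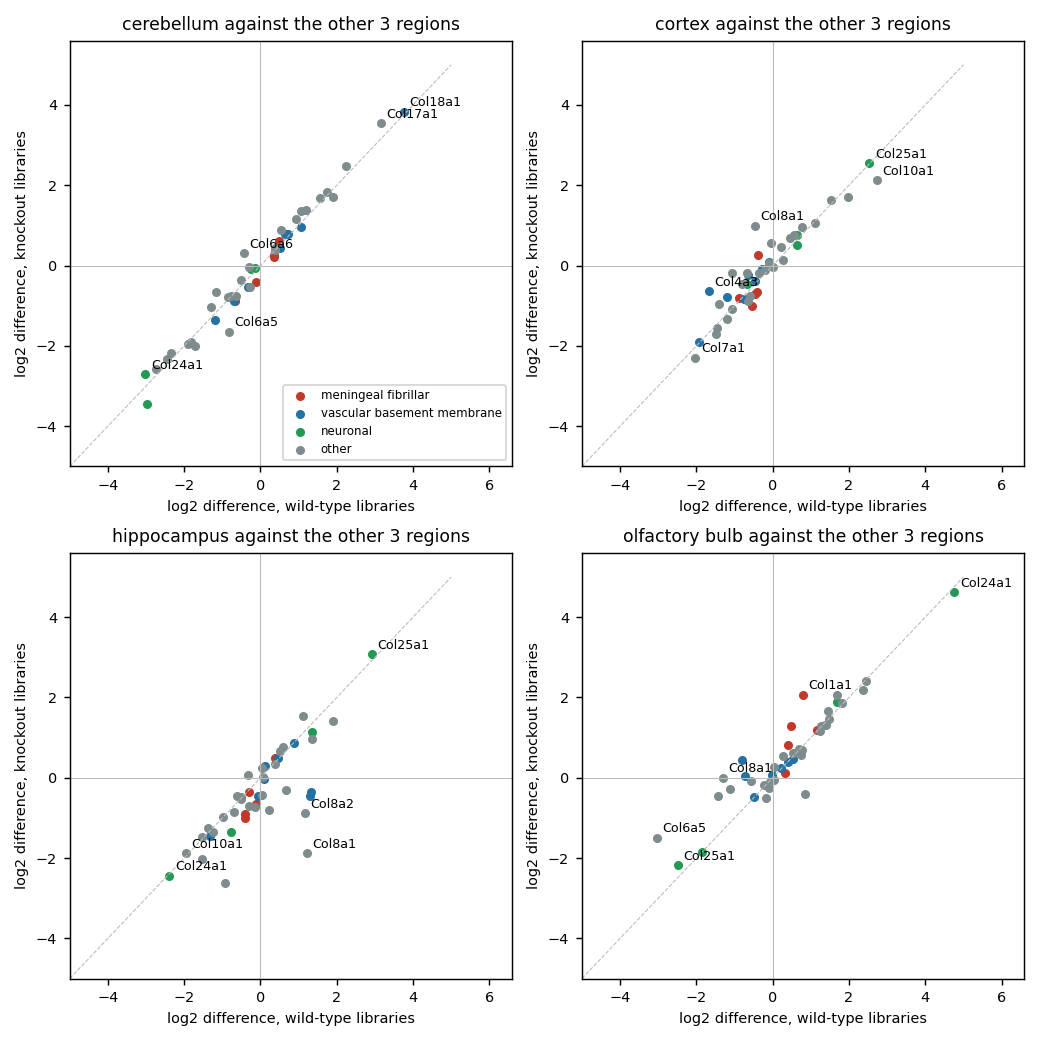
Each panel sets a region against the mean of the other 3 regions; the x axis is the log2 difference of a collagen in wild-type libraries and the y axis the same in knockout libraries, with colour for class. Points lie near the diagonal, with Col24a1 at 4.77 and 4.62 in the olfactory bulb panel and Col18a1 at 3.76 and 3.83 in the cerebellum panel.

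The scatter of wild-type against knockout region differences also shows the exceptions, Col8a1 foremost, whose hippocampus difference was 1.23 in the wild type and -1.87 in the knockout. It is a choroid-related member described with the knockout below.

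The neuronal collagens took opposite regional patterns. Col24a1, a fibrillar collagen reported from developing bone and cortex, was highest in the olfactory bulb. Col25a1, a transmembrane collagen expressed by neurons and found in the amyloid of Alzheimer plaques, was high in cortex and hippocampus instead. Because these genes differ so plainly between regions, the bases before their RefSeq starts are shown (RefSeq, GRCm38.p6, plus strand). Capitals mark 3 core promoter motifs, searched on either strand. The TATA box was searched as TATAAA, and the CCAAT box by the letters of its name. The third motif, the GC box, was searched as GGGCGG. The Col24a1 window, chr3:145292222-145292471, holds none of the 3 motifs, and the Col25a1 window, chr3:130180595-130180844, holds 1 CCAAT and, counting both strands, 2 GC boxes that do not overlap it. The Col24a1 start is the same in GENCODE, whereas GENCODE begins Col25a1 at base 130131501 on the same strand, so the Col25a1 window lies before a RefSeq start inside the gene as GENCODE draws it.
Col24a1 upstream: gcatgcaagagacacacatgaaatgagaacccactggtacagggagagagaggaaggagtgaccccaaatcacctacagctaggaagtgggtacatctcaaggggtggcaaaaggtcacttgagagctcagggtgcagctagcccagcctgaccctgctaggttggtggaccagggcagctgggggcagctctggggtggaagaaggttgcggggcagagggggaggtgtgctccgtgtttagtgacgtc
Col25a1 before its RefSeq start: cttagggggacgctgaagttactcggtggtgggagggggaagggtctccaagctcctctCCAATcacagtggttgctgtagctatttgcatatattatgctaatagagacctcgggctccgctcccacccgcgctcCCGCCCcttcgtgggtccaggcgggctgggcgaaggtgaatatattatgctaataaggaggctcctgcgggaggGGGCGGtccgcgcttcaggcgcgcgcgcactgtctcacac
Among 32851 RefSeq windows of 250 bases, 33.8% hold the CCAAT box, 32.7% the GC box and 12.4% the TATA box. A match or its absence describes these letters only.

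Col24a1 stood at 57.9, 40.4 and 65.3 CPM in wild-type olfactory bulb libraries 1 to 3 and at 44.3, 45.3 and 81.2 CPM in knockout ones. In the wild type it was at 1.16, 0.72 and 0.98 CPM in cerebellum, 1.12, 13.1 and 4.59 CPM in cortex, and 1.002, 0.45 and 2.65 CPM in hippocampus. All 6 olfactory bulb libraries lay above all 18 others, and cortex was the next highest, with a wide spread. The mean in wild-type olfactory bulb was 57-fold that in cerebellum and 8.68-fold that in cortex. The olfactory bulb difference was 4.77 on the log2 scale (SE 0.53, edgeR adjusted p = 4.7e-05), and those of cerebellum (-3.01, edgeR adjusted p = 0.0063) and hippocampus (-2.38, edgeR adjusted p = 0.029) were also called. The hippocampus call did not hold in 4 of 12 fits that left out 1 library, with the highest edgeR adjusted p at 0.12.

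Col25a1 was at 84.8, 59.9 and 81.6 CPM in wild-type cortex and at 105, 69.5 and 101 CPM in wild-type hippocampus. In wild-type cerebellum it was at 9.33, 1.66 and 2.12 CPM, and in olfactory bulb at 5.08, 4.09 and 7.59 CPM. Every cortex and hippocampus library of either genotype, from 59.9 CPM upward, exceeded every cerebellum and olfactory bulb library, at most 9.88 CPM. Its wild-type differences were 2.91 in hippocampus (SE 0.38, edgeR adjusted p = 0.0002), 2.54 in cortex (SE 0.38, edgeR adjusted p = 0.00054), -2.97 in cerebellum (SE 0.52, edgeR adjusted p = 0.00074) and -2.48 in olfactory bulb (SE 0.50, edgeR adjusted p = 0.0026). Excitatory neuron markers summed to 4392 to 7170 CPM in the cortex and hippocampus libraries and to 755 to 1795 CPM in the other regions, and their part in this difference was not tested.

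Col23a1, another transmembrane collagen, shared the olfactory bulb peak of Col24a1 at a broader base. Its wild-type libraries stood at 64.6, 68.7 and 69.9 CPM in olfactory bulb, 24.8, 24.4 and 25.8 CPM in cerebellum, 21.9, 21.9 and 16.4 CPM in cortex, and 12.6, 17.9 and 26.1 CPM in hippocampus. The 6 olfactory bulb libraries again lay above the 18 others, while cerebellum, cortex and hippocampus were not cleanly ordered. The olfactory bulb difference was 1.68 (SE 0.16, edgeR adjusted p = 4.2e-06). Col19a1, a fibril-associated collagen secreted by some interneurons, was highest in hippocampus at 15.6, 3.24 and 20 CPM and lowest in olfactory bulb at 3.07, 0.66 and 3.73 CPM in the wild type. It was not called in any region (edgeR adjusted p 0.063 to 0.86), and the library numbered 2 was its lowest in 7 of 8 groups, all but wild-type cortex. With the replicate number as a block, Col19a1 was called in wild-type cortex (0.90, edgeR adjusted p = 0.034), hippocampus (1.21, edgeR adjusted p = 0.0084) and olfactory bulb (-1.90, edgeR adjusted p = 0.0017).

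**Figure D3:**
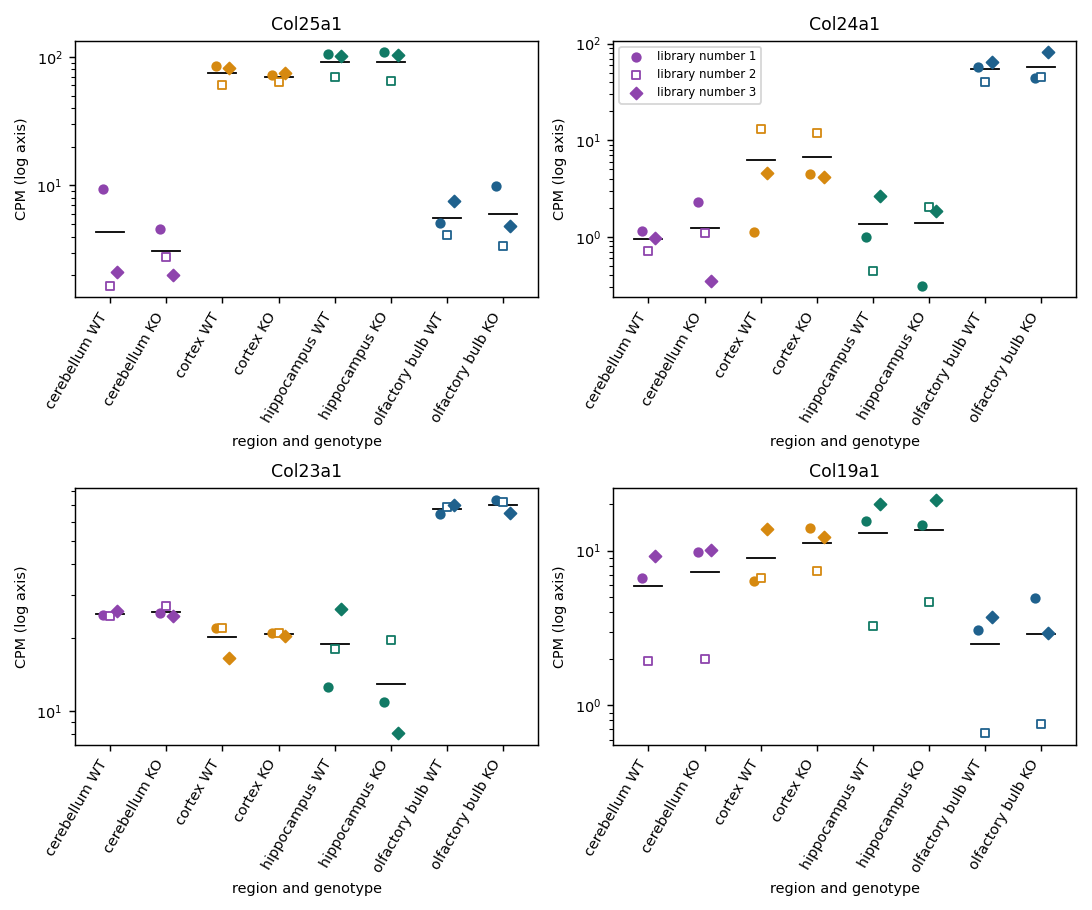
Each panel plots a neuronal collagen in CPM on a log axis for the 8 groups of region and genotype; points are libraries, open squares those numbered 2. Col24a1 lies between 40.4 and 81.2 CPM in olfactory bulb and at most 13.1 CPM elsewhere, and Col25a1 at 59.9 CPM or more in cortex and hippocampus only.

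Members of the vascular basement membrane class differed in where they were high. The pair Col4a1 and Col4a2, which encode the chains of the common type IV network around vessels, was lowest in the cerebellum, whereas Col18a1, whose protein carries the endostatin domain, was far highest there. In the wild type 3 of 8 members were called higher in cerebellum (Col18a1, Col4a5 and Col4a6) and 2 lower (Col4a1 and Col4a2), beside 27.5% and 26.9% of all genes, so that these counts were near the background. The 12 endothelial markers summed to 341 to 455 CPM over all 24 libraries, 363 to 426 CPM in cerebellum and 345 to 423 CPM in cortex, and those of pericytes and smooth muscle to 280 to 450 CPM.

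Col18a1 stood at 121, 171 and 140 CPM in wild-type cerebellum and at 143, 169 and 144 CPM in knockout cerebellum. The wild-type libraries of the other regions held 7.68, 8.69 and 6.04 CPM in cortex, 8.87, 11.3 and 10.5 CPM in hippocampus, and 16.3, 17.9 and 13.3 CPM in olfactory bulb. The highest of the 18 libraries outside the cerebellum, at 18.8 CPM, thus lay well under the lowest cerebellar one. The wild-type mean in cerebellum was 19.3-fold that in cortex, with a log2 difference from the other regions of 3.76 (SE 0.12, edgeR adjusted p = 2.2e-10). Without the 5 libraries rich in choroid plexus markers, which left 1 wild-type library each in cerebellum and hippocampus, that difference was 3.67. Within groups, Col18a1 and the choroid plexus sum gave Pearson r = 0.059 and Spearman rho = 0.24 over 24 libraries (permutation adjusted p = 0.78 and 0.35). A correlation within groups does not address a difference between regions, and the part of choroid plexus in that difference was not tested. Cortex fell by 1.94 (edgeR adjusted p = 2e-06) and hippocampus by 1.33 (edgeR adjusted p = 2.6e-05) relative to the other regions.

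Col4a1 was at 61.7, 58.8 and 42.2 CPM in wild-type cerebellum, 54.2, 94.0 and 54.6 CPM in cortex, 89.0, 114 and 91.8 CPM in hippocampus, and 101, 106 and 99.6 CPM in olfactory bulb. Col4a2 was at 44.9, 44.3 and 31.6 CPM in cerebellum, 48.9, 110 and 54.5 CPM in cortex, 104, 141 and 105 CPM in hippocampus, and 88.3, 100 and 84.5 CPM in olfactory bulb. In cortex the library numbered 2 held about as much as the hippocampus, so those regions overlapped. The cerebellar difference was -1.18 for Col4a2 (SE 0.24, edgeR adjusted p = 0.0016) and -0.70 for Col4a1 (SE 0.18, edgeR adjusted p = 0.0062). In hippocampus Col4a2 was called higher, by 0.87 (SE 0.21, edgeR adjusted p = 0.0086), and in olfactory bulb Col4a1 was, by 0.53 (SE 0.17, edgeR adjusted p = 0.025); the Col4a1 call did not hold in 3 of 12 fits without 1 library.

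The other chains of the class were scarcer. Col4a5 and Col4a6, which combine in some epithelial and smooth muscle basement membranes, had cerebellar differences of 0.65 (edgeR adjusted p = 0.0096) and 0.50 (edgeR adjusted p = 0.021). Both were called lower in cortex, at -0.75 and -0.66. Col15a1, a proteoglycan collagen of vessel walls, was called higher in olfactory bulb (0.68, edgeR adjusted p = 0.0063). Col4a3 and Col4a4, the chains of the glomerular and choroid plexus network, averaged 1.04 CPM each, and their hippocampal values of 0.63 and 0.26 CPM in wild type 2 set it apart from wild type 3 with 3.69 and 4.22 CPM. Col4a3 passed in wild-type hippocampus (1.33, edgeR adjusted p = 0.039), a call lost in 8 of 12 fits without 1 library and reversed to -0.018 without the 5 choroid-rich libraries.

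Several type IV genes are arranged head to head, and their levels moved together within groups. Col4a1 and Col4a2 start on opposite strands of chromosome 8 with their first exons sharing 22 bases, Col4a6 and Col4a5 start 1309 bases apart on chromosome X, and Col4a4 and Col4a3 start 72 bases apart on chromosome 1 (GENCODE, GRCm38). The bases between the starts of the last pair, the shortest gap that leaves sequence between genes, are printed here on the plus strand (RefSeq windows, GRCm38.p6, chr1:82586850-82586920), with none of these 3 boxes on either strand and so no capitals.
between Col4a4 and Col4a3: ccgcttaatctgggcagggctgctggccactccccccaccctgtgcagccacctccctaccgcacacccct
After removing each group's mean from log2(CPM + 0.1), Col4a1 and Col4a2 correlated at Pearson r = 0.95 and Spearman rho = 0.95 over the 24 libraries (permutation adjusted p = 0.00037 and 0.00052, within-group permutation, 16 relations). Without the 2 farthest libraries r was 0.93, and without the 8 libraries numbered 2 it was 0.83. Both genes were highest in the library numbered 2 in 7 of the 8 groups. Col4a3 with Col4a4 gave r = 0.85 and rho = 0.77 (permutation adjusted p = 0.00044 and 0.00052), 0.71 without the 2 farthest libraries and 0.67 without those numbered 2. Col4a5 with Col4a6 gave r = 0.66 and rho = 0.73 (permutation adjusted p = 0.0061 and 0.0032), 0.80 without the 2 farthest and 0.75 without number 2.

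Not every pair of chains of a shared type passed. Col1a1 and Col1a2, which together form type I collagen, gave r = 0.96 and rho = 0.93 (permutation adjusted p = 0.00037 and 0.00052), with r = 0.92 without the 2 farthest libraries. Col8a1 and Col8a2 gave r = 0.89 and rho = 0.80 (permutation adjusted p = 0.0026 and 0.0033), with 0.78 without the 2 farthest. Col6a1 with Col6a2 (r = 0.65, permutation adjusted p = 0.051), Col5a1 with Col5a2 (r = 0.59, permutation adjusted p = 0.082) and Col11a1 with Col11a2 (r = 0.66, permutation adjusted p = 0.10) missed the threshold. Without the libraries numbered 2 the r of these 3 pairs was 0.0165, 0.12 and 0.63. Col6a1 with Col6a3 (r = -0.18), Col9a1 with Col9a2 (r = -0.14) and Col9a2 with Col9a3 (r = -0.035) gave permutation adjusted p of 0.61, 0.78 and 0.84. Without the libraries numbered 2 their r was -0.24, -0.33 and 0.64, so the last pair depended on those libraries. All points share library depth and dissection. The permutations treated libraries of different groups as independent, although those numbered 2 shared a pattern over regions and genotypes. Every permutation p-value given here may therefore be too small.

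Among the meningeal fibrillar collagens, the minor chain Col5a2 was the member that separated regions. It was called higher in olfactory bulb (1.16, SE 0.18, edgeR adjusted p = 0.00025) and lower in cortex (-0.88, edgeR adjusted p = 0.005) and cerebellum (-0.67, edgeR adjusted p = 0.014), with wild-type values of 23.7, 18.7 and 23.9 CPM in olfactory bulb, above all other wild-type libraries. The type I, type III and Col5a1 chains separated regions less. Col1a2, a chain of type I collagen, stood at 51.5, 48.1 and 36.4 CPM in wild-type cerebellum, 46.3, 26.6 and 18.9 CPM in cortex, 30.0, 28.2 and 33.5 CPM in hippocampus, and 41.6, 49.95 and 52.9 CPM in olfactory bulb. It was not called in any wild-type region (edgeR adjusted p 0.094 to 0.19), and neither were Col3a1 (0.075 to 0.26, edgeR adjusted p), the type III chain, and Col5a1 (0.35 to 0.60, edgeR adjusted p), a chain that regulates fibril diameter.

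Col1a1, the other chain of type I collagen, was at 19.9, 19.2 and 15.0 CPM in wild-type cerebellum, 21.2, 13.5 and 9.21 CPM in cortex, 13.6, 22.1 and 18.6 CPM in hippocampus, and 19.8, 29.8 and 37.3 CPM in olfactory bulb. Its olfactory bulb difference of 0.79 was called (SE 0.24, edgeR adjusted p = 0.020) and did not hold in 2 of 12 fits without 1 library. Col5a1 ranged from 8.19, 42.5 and 19.2 CPM in wild-type cortex to 25.9, 47.3 and 38.4 CPM in cerebellum, with 12.3, 23.5 and 33.9 CPM in hippocampus and 36.3, 24.7 and 40.5 CPM in olfactory bulb. Its groups overlapped in all regions.

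Of the meningeal class, only Col1a2 was set against markers of meningeal fibroblasts. Within groups, Col1a2 correlated with the sum of 16 meningeal fibroblast markers that hold no collagen at r = 0.80 and rho = 0.89 (permutation adjusted p = 0.00037 and 0.00052), and at 0.89 without the 2 farthest libraries. Those markers summed to 425 to 682 CPM in olfactory bulb and 160 to 540 CPM elsewhere, and 9 of 16 were called higher in wild-type olfactory bulb, none lower, with a median of 0.77, beside 22% and 21.6% of all genes. Their part in the olfactory bulb differences of the collagens was not tested. Col5a1, of the same class, did not always go with these markers. In wild-type cortex 1 to 3 it was at 8.19, 42.5 and 19.2 CPM, where the markers summed to 512, 286 and 241 CPM. In knockout hippocampus 1 to 3 it was at 14.6, 22.9 and 15.4 CPM, where they summed to 174, 407 and 160 CPM. For the vascular class, Col4a1 and the endothelial sum gave r = 0.33 and rho = 0.17 (permutation adjusted p = 0.57 and 0.63).

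The 27 other collagens held the most abundant and the rarest members. Col6a1, a chain of the beaded filaments that link cells to matrix, stood at 168, 218 and 195 CPM in wild-type olfactory bulb, 13.0, 17.3 and 17.7 CPM in cerebellum, 24.2, 112 and 45.8 CPM in cortex, and 26.8, 63.2 and 49.2 CPM in hippocampus. The 6 olfactory bulb libraries lay above the 18 others, and the wild-type mean there was 12.1-fold that in cerebellum. The log2 difference was 2.45 in olfactory bulb (SE 0.36, edgeR adjusted p = 0.00031) and -2.35 in cerebellum (SE 0.46, edgeR adjusted p = 0.0015). Its partner chains moved less: Col6a2 differed by 0.68 in olfactory bulb (edgeR adjusted p = 0.017) and -1.30 in cerebellum (edgeR adjusted p = 0.00046), and Col6a3 by -0.86 in cerebellum alone (edgeR adjusted p = 0.022).

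The rarer type VI chains went other ways. Col6a5 was at 0.92, 2.172 and 1.30 CPM in wild-type cortex and 1.65, 1.38 and 1.21 CPM in hippocampus, against 0.33, 0.19 and 0.51 CPM in cerebellum and 0.042, 0.033 and 0.26 CPM in olfactory bulb. It was called higher in cortex (1.97, edgeR adjusted p = 0.0018) and hippocampus (1.89, edgeR adjusted p = 0.0025) and lower in olfactory bulb (-3.04, edgeR adjusted p = 0.001). The olfactory bulb values were near the floor. In knockout olfactory bulb Col6a5 stood at 0.55, 0.21 and 0.17 CPM, and none of the 27 other collagens was called lower there. Its olfactory bulb log2 differences in the wild-type and knockout fits lay 1.55 apart, the most of any member in that region. Col6a4 was called higher in hippocampus (1.12, edgeR adjusted p = 0.037; lost in 7 of 12 fits without 1 library) and lower in cerebellum (-1.71, edgeR adjusted p = 0.0066), and Col6a6 in no region.

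A group of collagens of mixed structure marked the cerebellum. Col9a3 stood at 63.3, 89.2 and 58.0 CPM in wild-type cerebellum, 14.04, 16.2 and 10.9 CPM in cortex, 36.4, 11.8 and 47.8 CPM in hippocampus, and 20.3, 20.1 and 22.4 CPM in olfactory bulb. All 6 cerebellar libraries lay above the 18 others, and the hippocampus libraries rich in choroid plexus markers, wild type 1 and 3, came next. Its cerebellar difference was 1.74 (SE 0.29, edgeR adjusted p = 0.00049). It was 1.94 without the 5 choroid-rich libraries, which left 1 wild-type library each in cerebellum and hippocampus. Within groups Col9a3 and the choroid plexus sum gave r = 0.71 and rho = 0.62 (permutation adjusted p = 0.051 and 0.037), and r = -0.11 within the 12 knockout libraries.

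Col17a1, the transmembrane collagen of hemidesmosomes, was at 3.99, 8.46 and 6.505 CPM in wild-type cerebellum, 0.56, 1.07 and 0.74 CPM in cortex, 0.68, 0.074 and 1.57 CPM in hippocampus, and 0.46, 0.56 and 0.69 CPM in olfactory bulb. No cerebellar library overlapped another region, and the difference was 3.17 (SE 0.43, edgeR adjusted p = 6.7e-05). The fibrillar chains Col27a1 (2.25, edgeR adjusted p = 2e-06) and Col5a3 (1.91, edgeR adjusted p = 0.00021) and the transmembrane Col13a1 (0.93, edgeR adjusted p = 0.0021), known from neuromuscular junctions, were also higher in cerebellum with all 6 libraries above the 18 others. Col18a1 is the only further member with that separation. Col2a1, the cartilage fibril chain, was called higher in both cerebellum (1.197, edgeR adjusted p = 0.0042) and olfactory bulb (1.27, edgeR adjusted p = 0.0039).

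Col7a1, the anchoring-fibril collagen, was lowest in cortex. Its wild-type libraries held 0.66, 8.54 and 3.14 CPM in cortex, 4.01, 7.33 and 6.42 CPM in hippocampus, 17.0, 35.0 and 29.6 CPM in cerebellum, and 26.2, 33.4 and 33.1 CPM in olfactory bulb. Cortex and hippocampus overlapped, and both lay under the remaining regions. The cortex difference was -2.02 (SE 0.56, edgeR adjusted p = 0.016), with an olfactory bulb difference of 1.82 (edgeR adjusted p = 0.0075). Col10a1, the short-chain collagen of growth cartilage, was at 1.48, 0.78 and 0.89 CPM in wild-type cortex, 0.88, 0.63 and 0.26 CPM in olfactory bulb, 0.11, 0.031 and 0.060 CPM in cerebellum, and 0.029, 0.15 and 0.090 CPM in hippocampus. It was called in all 4 regions of the wild type, at 2.74 in cortex (edgeR adjusted p = 0.00027) and -1.96 in hippocampus (edgeR adjusted p = 0.028; lost in 3 of 12 fits without 1 library).

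The olfactory bulb gathered further fibril-associated members. Col9a2 (1.45, edgeR adjusted p = 8e-06) and Col9a1 (1.47, edgeR adjusted p = 0.00072), the other type IX chains, had all 6 olfactory bulb libraries above the 18 others. Col12a1 (1.41, edgeR adjusted p = 0.00036), Col16a1 (1.24, edgeR adjusted p = 0.0018) and Col20a1 (0.76, edgeR adjusted p = 0.011) were called there too. So were the fibrillar Col11a1 (1.38, edgeR adjusted p = 0.007) and Col28a1 (2.38, edgeR adjusted p = 0.00091), which is of another type. By contrast the minor fibril chain Col11a2 was highest in hippocampus, at 35.2, 34.1 and 35.3 CPM in the wild type, with 21.96, 24.1 and 20.5 CPM in cerebellum, 14.1, 30.3 and 19.3 CPM in cortex, and 21.1, 30.2 and 27.2 CPM in olfactory bulb. Its difference of 0.59 was called (SE 0.18, edgeR adjusted p = 0.023), a call lost in 3 of 12 fits without 1 library.

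Low levels in cerebellum marked Col22a1 and Col26a1. Col22a1, known from tissue junctions, was called at -2.73 in cerebellum (edgeR adjusted p = 1.4e-06), 1.34 in hippocampus and 1.12 in cortex. Col26a1 was called at -1.83 in cerebellum (edgeR adjusted p = 8.8e-05) and 1.53 in cortex (edgeR adjusted p = 0.00016), and Col14a1, which binds fibril surfaces, at -1.17 in cerebellum (edgeR adjusted p = 0.014). Of all 44 members, 36 were called in at least 1 wild-type region, beside 73.5% of all genes, a share not far from that of the members. The other 8 were Col19a1, Col1a2, Col3a1, Col4a4, Col5a1, Col6a6, Col8a1 and Col8a2, and 34 members were called in the same region with the same sign in both genotypes, beside 69.4% of all genes.

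Between genotypes, no collagen was called in any comparison by edgeR. The number tested was 43 in cerebellum, 44 in cortex, 42 in hippocampus, 43 in olfactory bulb and 44 for the mean over the 4 regions, as Col10a1, Col17a1 and Col6a5 fell under the count filter in 1 or 2 regions. Among all genes edgeR called 0% in cerebellum, 0.0379% in cortex, 0% in hippocampus, 0% in olfactory bulb and 2.68% in the mean over regions, and 0.0232% when asking whether the effect differed between regions. At an unadjusted p under 0.05 there were 1, 0, 3, 0, 3 and 1 collagens in these 6 comparisons, against 5.48, 4.2, 5.16, 5.33, 14 and 2.54% of all genes. DESeq2 and limma-voom called 0 collagens in all 6 too.

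Most differences were small beside the error of the comparison. The log2 difference was under 0.5 in size for 41 of 43 in cerebellum, 41 of 44 in cortex, 33 of 42 in hippocampus, 38 of 43 in olfactory bulb and 40 of 44 in the mean over regions. Median standard errors were 0.24, 0.34, 0.31, 0.24 and 0.17 in that order, so differences of that size on the log2 scale were not detectable for a typical member. For the members with the strongest regional patterns, the mean difference over regions was 0.01 for Col18a1 (SE 0.13), -0.11 for Col25a1 (SE 0.24), 0.17 for Col24a1 (SE 0.39), -0.10 for Col23a1 (SE 0.12) and 0.09 for Col6a1 (SE 0.23).

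**Figure D4:**
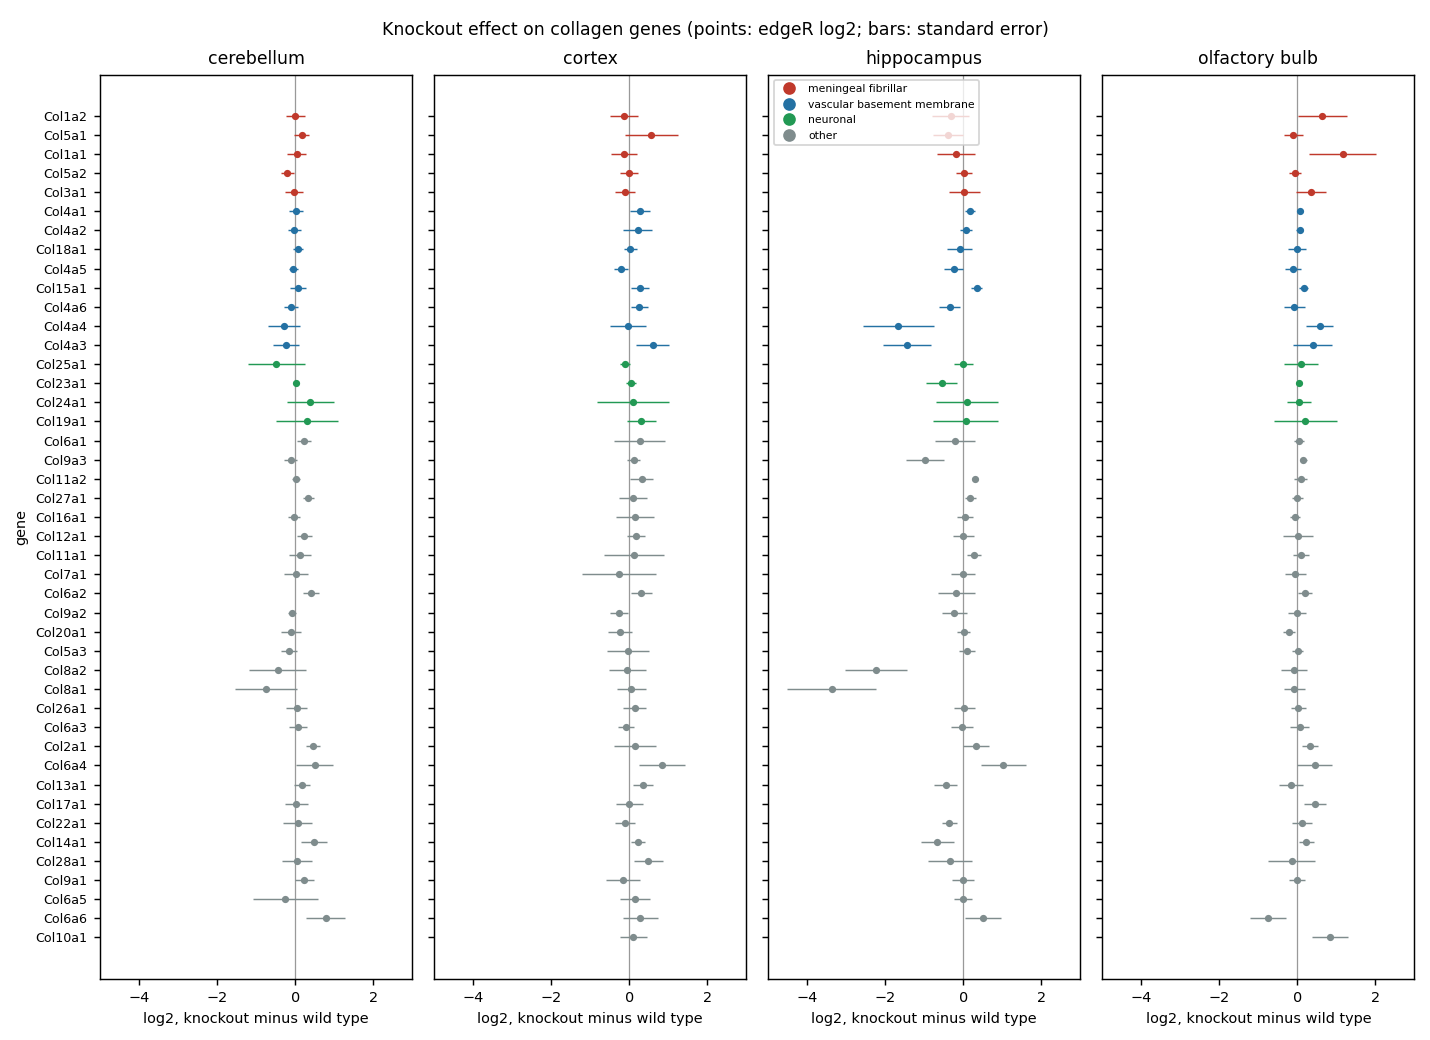
Each panel is a knockout versus wild-type comparison; the x axis is the log2 difference with its standard error and each line a collagen gene, coloured by class. No interval belongs to a called gene, and the widest departures are Col8a1 at -3.37, Col8a2 at -2.23, Col4a4 at -1.67 and Col4a3 at -1.44 in hippocampus and Col1a1 at 1.16 in olfactory bulb.

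The members with the smallest p in each region, none of them called, were Col2a1 in cerebellum, Col13a1 in cortex, Col11a2 in hippocampus and Col9a3 in olfactory bulb. Col2a1 stood at 4.54, 3.36 and 3.76 CPM in wild-type and 4.80, 6.35 and 4.96 CPM in knockout cerebellum (0.46, SE 0.18, edgeR adjusted p = 0.86). Col13a1 stood at 1.88, 1.74 and 1.51 CPM in wild-type and 2.59, 1.57 and 2.42 CPM in knockout cortex (0.36, SE 0.25, edgeR adjusted p = 1). Col11a2 reached 46.3, 43.9 and 39.2 CPM in knockout hippocampus, above its 3 wild-type values (0.30, SE 0.08, edgeR adjusted p = 0.95), and Col9a3 24.8, 23.2 and 22.7 CPM in knockout olfactory bulb (0.15, SE 0.08, edgeR adjusted p = 0.96). In each region exactly 1 collagen had all knockout libraries above all wild-type ones (Col2a1, Col14a1 in cortex, Col11a2 and Col9a3) and 0 had them below, where 6.25, 5.03, 5.5 and 5.83% of all genes separated upward in cerebellum, cortex, hippocampus and olfactory bulb and 4.98, 4.26, 4.96 and 4.41% downward.

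The largest differences in size were those of the short-chain network collagens Col8a1 and Col8a2, which form lattices under endothelia, in hippocampus. Col8a1 was at 13.4, 1.08 and 19.5 CPM in wild-type and 0.72, 1.95 and 0.50 CPM in knockout hippocampus, and Col8a2 at 13.4, 2.01 and 18.3 CPM against 3.26, 1.85 and 2.08 CPM. Wild type 1 and 3 were high for both genes, and wild type 2 lay among the knockout libraries. The log2 differences of -3.37 for Col8a1 (SE 1.142, edgeR adjusted p = 0.95) and -2.23 for Col8a2 (SE 0.79, edgeR adjusted p = 0.95) did not pass. Over the regions Col8a1 had the smallest p of all members (-1.03, SE 0.39, edgeR adjusted p = 0.21), also for the difference of the effect between regions (unadjusted p = 0.029, edgeR adjusted p = 1).

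These values moved with the choroid plexus markers. The 11 markers summed to 2552, 43.0 and 3374 CPM in wild-type hippocampus 1 to 3 and to 54.3, 44.5 and 41.3 CPM in knockout hippocampus. Transthyretin, Ttr, the defining secretory product of this epithelium, was at 2260, 6.78 and 2991 CPM in the wild type and at 13.0, 8.57 and 6.66 CPM in the knockout. Within groups Col8a1 and the marker sum gave r = 0.89 and rho = 0.81 over the 24 libraries (permutation adjusted p = 0.00064 and 0.002), 0.76 without the 2 farthest and 0.85 without those numbered 2. Where the sum was low, it followed mainly 1 marker. In olfactory bulb Aqp1 held 39.0 to 69.5 CPM of sums of 46.0 to 79.2 CPM, with Ttr at most 1.03 CPM. In knockout hippocampus Kl held 29.69, 27.35 and 26.45 CPM. The sum thus says little about choroid plexus in those libraries. Without the 5 choroid-rich libraries, the hippocampus values were -6.4e-05 for Col8a1, 0.25 for Col8a2, 0.15 for Col4a3, 1.30 for Col4a4 and 0.46 for Col9a3, against -3.37, -2.23, -1.44, -1.67 and -0.98 with them. That comparison left a single wild-type hippocampus library, assumed to vary like the others.

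Leaving out hippocampus wild type 2 alone, the opposite choice, made Col8a2 (-2.73, edgeR adjusted p = 0.013) and Col9a3 (-1.38, edgeR adjusted p = 0.016) pass, when 0.268% of all genes were called. Leaving out all libraries numbered 2 made 4 members pass in hippocampus: Col8a1 (-4.74, edgeR adjusted p = 2.7e-05), Col8a2 (-2.56, edgeR adjusted p = 0.001), Col9a3 (-1.35, edgeR adjusted p = 0.004) and Col1a2 (-1.143, edgeR adjusted p = 0.0035), with 0.637% of all genes called. In both cases the wild-type libraries that remained were the 2 choroid-rich ones.

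**Figure D5:**
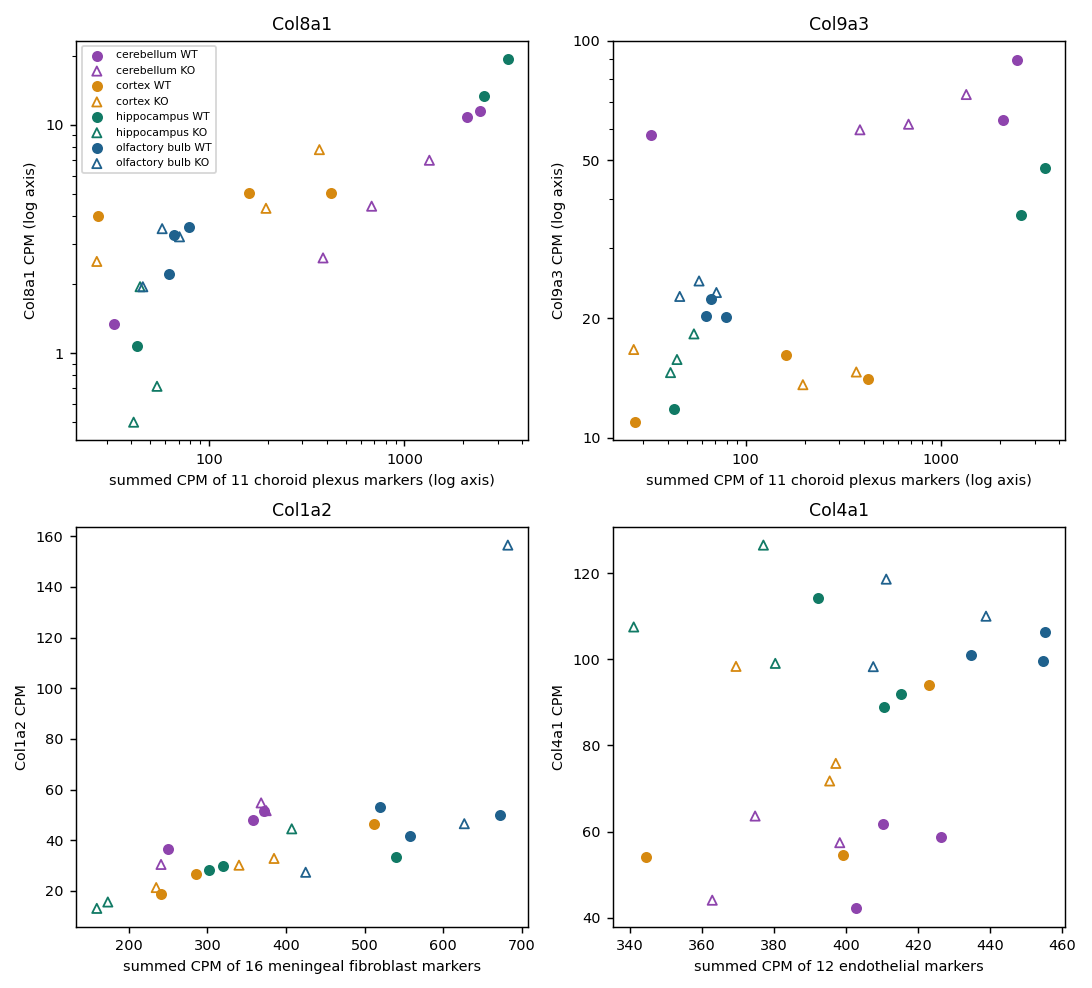
Each point is a library; the panels plot Col8a1 and Col9a3 against the sum of 11 choroid plexus markers (log axes), Col1a2 against 16 meningeal markers and Col4a1 against 12 endothelial markers (linear axes), all in CPM. Of the 5 libraries with over 1000 CPM of choroid plexus markers 4 hold the highest Col8a1 values, 10.8 to 19.5 CPM, while cerebellum knockout 2 at 7 CPM lies under cortex knockout 3 at 7.79 CPM, and olfactory bulb knockout 2 stands alone at 156 CPM of Col1a2.

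The plots of collagens against marker sums also show a single library behind the type I collagen difference in the olfactory bulb. Olfactory bulb knockout 2 held 157 CPM of Col1a1 and 156 CPM of Col1a2, against 24.5 and 17.8 CPM of Col1a1 and 46.5 and 27.4 CPM of Col1a2 in the other two knockout libraries. Its Col3a1 was also highest, at 25.6 CPM, while its meningeal marker sum of 682 CPM was close to the 672 CPM of wild type 2. The differences between genotypes, 1.16 for Col1a1, 0.64 for Col1a2 and 0.35 for Col3a1, did not pass (edgeR adjusted p = 1 each) and were -0.46, -0.39 and -0.13 without that library. The region difference of Col1a1 in knockout olfactory bulb likewise went from 2.07 (edgeR adjusted p = 0.017) to 0.42 (edgeR adjusted p = 0.45) without it.

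Genes that build, process, bind and break down collagen were followed in 6 lists, whose counts in olfactory bulb are to be read beside 22% of all genes called higher there and 21.6% lower. In the wild-type olfactory bulb, 8 of 17 folding and modification genes were higher and 0 lower, among them the lysyl hydroxylase Plod2 (1.23, edgeR adjusted p = 7.9e-06) and the prolyl 3-hydroxylase P3h2 (1.43, edgeR adjusted p = 9.5e-06). Of 10 fibril-binding matrix proteins 4 were higher and 1 lower there, led by fibulin-2, Fbln2 (2.79, edgeR adjusted p = 9.5e-09), and biglycan, Bgn (1.61, edgeR adjusted p = 7.9e-07), with Tnxb lower (-0.55, edgeR adjusted p = 0.048). Of 12 basement membrane partners 6 were higher and 2 lower, with the vessel laminin Lama4 (1.40, edgeR adjusted p = 1.3e-06) and nidogen Nid1 (1.35, edgeR adjusted p = 5.8e-06) up and Lamb1 down (-1.08, edgeR adjusted p = 0.00011). The median log2 difference was 0.39 for folding genes and 0.42 for basement membrane partners, beside 0.44 for the collagens and 0.01 for all genes.

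The remaining lists in olfactory bulb were read beside the same shares. Degradation genes were 5 higher and 1 lower of 10 tested, with the membrane-bound collagenase Mmp14 up (0.93, edgeR adjusted p = 3.8e-05) and the protease inhibitor Timp4 down (-1.52, edgeR adjusted p = 1.6e-06). Of 8 receptors tested 5 were higher and 1 lower, with Ddr1 (0.42, edgeR adjusted p = 0.0013) and Ddr2 (0.88, edgeR adjusted p = 0.0013) up and the integrin Itga11 down (-0.61, edgeR adjusted p = 0.023). Processing and crosslinking genes, with 3 higher and 3 lower of 12, were near the background, with the propeptidase Tll1 up (1.12, edgeR adjusted p = 4.1e-05) and the procollagen N-propeptidase Adamts2 down (-1.88, edgeR adjusted p = 1.4e-06).

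Elsewhere the lists split by region. In wild-type cerebellum 3 of 17 folding genes were higher and 4 lower, no larger a share than the 27.5% and 26.9% of all genes, with P4ha3, a prolyl 4-hydroxylase subunit, at -3.29 (edgeR adjusted p = 4.9e-07). There Timp4 was up (2.58, edgeR adjusted p = 1.7e-09) and Timp2 down (-2.28, edgeR adjusted p = 7.9e-06), and Tll1 was up (2.37, edgeR adjusted p = 2.8e-08). In cortex, where 21.8% of all genes were higher and 17.6% lower, 7 of 12 basement membrane partners were lower and 0 higher, led by Nid1 (-1.10, edgeR adjusted p = 0.00015) and perlecan, Hspg2 (-0.77, edgeR adjusted p = 0.00024), and 5 of 10 fibril-binding proteins were lower and 0 higher. In hippocampus, where 17.7% of all genes were higher and 15.3% lower, 3 of 10 fibril-binding proteins were higher and 1 lower, with tenascin-X, Tnxb (2.19, edgeR adjusted p = 2e-06), and decorin, Dcn (1.23, edgeR adjusted p = 0.00029), up, and the integrin Itga11 was up too (1.52, edgeR adjusted p = 2.3e-05).

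Between genotypes none of the 6 lists had a called member in any region, and 2 of the 70 genes tested were called in the mean over regions. That is 2.86% of them, near the 2.68% of all genes, so the count says nothing particular about the lists. Lair1, an inhibitory collagen receptor of immune cells, stood at 10.7, 11.4 and 10.6 CPM in wild-type and 8.72, 7.47 and 7.84 CPM in knockout olfactory bulb, and at 9.20, 9.08 and 9.39 CPM against 7.10, 7.31 and 6.53 CPM in cortex. The genotypes did not overlap in these regions or in hippocampus, and overlapped in cerebellum. Its mean difference was -0.31 (SE 0.06, edgeR adjusted p = 0.0057), and it was called in all 24 fits that left out 1 library, with edgeR adjusted p up to 0.015. Without the 5 choroid-rich libraries it was -0.30 and not called (edgeR adjusted p = 0.10).

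Mmp14 was at 14.6, 17.96 and 15.3 CPM in wild-type and 22.1, 23.4 and 19.6 CPM in knockout cerebellum, and at 20.3, 29.7 and 25.3 CPM against 31.6, 37.5 and 27.2 CPM in olfactory bulb. The genotypes did not overlap in cerebellum and cortex, and overlapped in hippocampus and olfactory bulb. Its mean difference of 0.34 (SE 0.09, edgeR adjusted p = 0.045) did not hold in 18 of 24 fits without 1 library, with edgeR adjusted p up to 0.085. It was 0.26 without the libraries numbered 2 (edgeR adjusted p = 0.12) and 0.37 without the choroid-rich ones (edgeR adjusted p = 0.28).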

How the data were processed

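The 24 libraries were poly(A) RNA of 4 brain regions in 2 genotypes, made with TRIzol and a stranded mRNA kit, per the labels' protocols. The authors deposited whole-number read counts per Ensembl gene for each library; bcl2fastq 2.17.1.14, STAR 2.5.1b, HTSeq 0.6.1p1 and the mm9 assembly are named in the submitters' processing notes, and whether the counting used strand is not given in the sources used here. Symbols, exon lengths and gene positions came from GENCODE (GRCm38) by Ensembl ID, 32897 of 37621 features matched, and upstream sequences from RefSeq (35 of 44 collagens matched). The 5 summary lines of each file (reads of no feature were 8.22 to 16.8% of all, for example) were left out of totals and tests. Collagen exons shared at most 6.07% of their bases with other genes.

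Counts were tested with edgeR 4.0.16 (R 4.3.3): filterByExpr, TMM, robust glmQLFit and glmQLFTest, with Benjamini-Hochberg adjustment over all genes tested and a threshold of 0.05. Genotypes were compared within each region from its 6 libraries, and over regions from all 24 with 8 group means; regions from 12 libraries of a genotype. Printed levels are TMM-scaled CPM. The libraries held 21068566 to 40472007 gene counts each. Replicate libraries differed by 6.97 to 60 times the counting noise (chi-square per degree of freedom), so no pair was within the noise of 1 library counted again; this does not show that they came from separate animals. The code was tested on simulated data. Correlations used deviations of log2(CPM + 0.1) from group means and 100000 permutations within groups (numpy 2.4.6, scipy 1.17.1). Alternatives were DESeq2 1.42.0, limma-voom (limma 3.58.1), library totals, RLE, no filter, a replicate block and leaving out each library; leaving out the 5 choroid-rich libraries or the 8 numbered 2, and the list of bone-forming genes, were chosen after seeing the data.

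The members, classes and lists were chosen with earlier results of these data known. Single-library values were given for the 3 members of highest mean CPM in each class, for the 2 called members per direction with the largest log2 difference in each wild-type region, and for the member with the smallest p in each genotype comparison; other members with such values were chosen after their values were seen. Up to 2 called genes per direction with the smallest p were named from a pathway list.

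Replicate numbers were checked by correlating the deviations of equally numbered libraries. Between genotypes r was 0.26 to 0.71 in cerebellum, 0.33 to 0.60 in hippocampus and 0.26 to 0.78 in olfactory bulb. In cortex it was -0.045 to 0.67. Unequally numbered libraries reached 0.29, 0.34, 0.44 and 0.49 in that order, above the lowest equal value of each region. Only the libraries numbered 2 exceeded every unequal pair in all regions, at 0.71, 0.60, 0.78 and 0.67. The other numbers thus did not pair the genotypes throughout. Between regions only equally numbered libraries were correlated, so pairing cannot be judged there. Those values were 0.11 and above in the wild type and -0.012 and above in the knockout.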

Additional observations from a re-analysis of the deposited data

How the results depend on the processing

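Every fit kept the number of collagens called between genotypes in cerebellum, cortex, olfactory bulb and the mean over regions at 0, and region counts under DESeq2, limma-voom, RLE, library totals and no filter stayed within 1.5 times the main count (13 to 17 in wild-type hippocampus, 19 to 22 in wild-type cortex). The results that left this range or changed sign follow; the cause was not tested. Leaving out 1 library at a time gave 22 to 30 collagens in wild-type cerebellum, 11 to 22 in cortex (11 without cortex wild type 3), 9 to 17 in hippocampus (9 without cerebellum wild type 1 or hippocampus wild type 1) and 18 to 25 in olfactory bulb; in knockout libraries 26 to 34, 16 to 22, 14 to 24 (14 without hippocampus knockout 1) and 19 to 25. Between genotypes in hippocampus it gave 0 to 2, and for the difference between regions 0 to 1, in both cases the higher without hippocampus wild type 2. The genotype difference then ranged from -0.035 (without cerebellum wild type 1) to 0.21 for Col18a1 in cerebellum and from -0.030 (without cortex knockout 2) to 0.69 for Col4a2 in cortex. In olfactory bulb it ranged from -0.46 to 1.605 for Col1a1, -0.39 to 1.04 for Col1a2 and -0.13 to 0.67 for Col3a1, the lowest without olfactory bulb knockout 2; none of these was called. Without the 5 choroid-rich libraries, which leaves 1 wild-type library each in cerebellum and hippocampus, 15 collagens were called in wild-type cerebellum and 7 in wild-type hippocampus. Signs then turned to 1.37 for Col8a1 in cerebellum, to 0.25 for Col8a2, 0.15 for Col4a3, 1.30 for Col4a4 and 0.46 for Col9a3 in hippocampus, to 0.34 for Col8a1 and 0.26 for Col8a2 in the mean over regions, and to -0.018 for Col4a3 in wild-type hippocampus against the other regions. Without the libraries numbered 2, 4 collagens were called between genotypes in hippocampus and 1 (Col9a3) for the difference between regions, and Col1a1, Col1a2 and Col3a1 turned to -0.46, -0.38 and -0.12 in olfactory bulb.

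With the replicate number as a block, the wild-type counts were 25, 22, 18 and 24 in cerebellum, cortex, hippocampus and olfactory bulb, the knockout counts 33, 21, 27 and 25, and the genotype counts 0. In the wild type the block added Col16a1 in cerebellum (edgeR adjusted p = 0.025), Col15a1 in cortex (0.042, edgeR adjusted p), Col7a1, Col4a1, Col12a1 and Col28a1 in hippocampus (0.016, 0.016, 0.033 and 0.020, edgeR adjusted p), Col4a2 in olfactory bulb (0.044, edgeR adjusted p) and Col19a1, and lost Col4a3 in hippocampus (0.069, edgeR adjusted p). Of the limits, 3 libraries a group leave median standard errors of 0.17 to 0.34 on the log2 scale for the knockout differences.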

Other observations

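The libraries numbered 2 shared a pattern across regions and genotypes. Of 15495 genes at 0.5 CPM or more, 11.5% had their highest library numbered 2 in at least 7 of the 8 groups, and 6.43% had their lowest. Among the collagens 8 were highest there, Col16a1, Col18a1, Col2a1, Col4a1, Col4a2, Col5a3, Col7a1 and Col9a1, and Col19a1 and Col25a1 were lowest. These counts used CPM by library totals, without TMM. On TMM-scaled CPM Col9a1 falls outside the rule. There number 1 exceeded number 2 in wild-type hippocampus (0.83 against 0.78 CPM) and knockout olfactory bulb (2.36 against 2.13 CPM). For number 1 the shares were 0.574% highest and 5.21% lowest, with 0 and 4 collagens (Col20a1, Col6a1, Col6a6 and Col7a1), and for number 3 they were 1.08% and 1.15%, with 0 collagens. The labels do not say what a number stands for.

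Olfactory bulb knockout 2, the library with the highest Col1a1 and Col1a2, also held the highest levels of 5 of 8 listed genes expressed by bone-forming cells (Ibsp, Bglap, Bglap2, Sp7 and Mepe). Ibsp was at 4.04 CPM there and at most 0.86 CPM in the other 23 libraries, Bglap at 2.38 CPM against at most 1.201 CPM, and Bglap2 at 1.90 CPM against at most 0.90 CPM. Sp7 was at 69.0 CPM there, but also at 52.4 to 59.3 CPM in the other olfactory bulb libraries, against at most 3.26 CPM outside the olfactory bulb. Mepe, near the floor in all libraries, was at 0.14 CPM against at most 0.070 CPM. The other 3 were higher elsewhere, with Dmp1 at 9.35 CPM against 16.3 CPM in cerebellum wild type 2, Phex at 1.49 CPM against 6.19 CPM in cerebellum knockout 3 and Alpl at 9.88 CPM against 9.90 CPM in cortex knockout 1. These genes were chosen after the type I collagen values were seen, and their part in those values was not tested.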
